A study of Rattus norvegicus with 36 samples.

Results

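The genes described here make cholesterol or control its amount in the cell, and they were measured in rat liver after dosing with decaBDE (decabromodiphenyl ether), a flame retardant that carries bromine. They were chosen by name: 30 symbols of the mevalonate and sterol pathway and its control genes were listed, and 27 of them had a probe set that carries only their symbol, out of 14217 genes so measured. Hmgcs1, Npc1 and Soat2 had no such probe set and are not analysed here. The 27 fall into 6 roles: 7 genes of the mevalonate and isoprenoid steps, 3 from squalene to lanosterol, 8 from lanosterol to cholesterol, 4 of SREBP2 control, 2 of sterol movement and storage, and 3 of the LXR arm and export. The first 3 roles without Ggps1, which leads away from sterols, are called the synthesis enzymes below and count 17 genes.

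Liver cells build cholesterol from acetyl-CoA through mevalonate, the isoprenoid diphosphates, squalene and lanosterol. When sterols in the endoplasmic reticulum are low, SCAP carries the transcription factor SREBP2 to the Golgi, where it is cut and released to switch on the synthesis genes. When sterols are high, INSIG proteins hold SCAP back, and oxidised sterols activate LXR, which turns on export of cholesterol. In the liver the pathway also follows feeding and the time of day.

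All rats were male Harlan Sprague Dawley animals, 7 weeks old at the start, dosed by gavage once daily for 5 days in corn oil at 5 ml/kg. The vehicle group received corn oil alone. The decaBDE groups received 959, 95.9 or 9.59 mg/kg, or the low doses of 0.959 and 0.1 mg/kg. The left lobe of the liver was taken 1 day after the last dose. Each group had 6 arrays, 36 in all. Whether every array stands for a different rat is not spelled out in the labels, and p-values here measure no more than the differences among arrays. Values are on the log2 RMA scale (log2 of background-corrected, quantile-normalised signal), where a difference of 1 is a doubling of signal. Each gene is given by its brightest probe set.

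Across 31042 probe sets the array medians ran from 5.12 to 5.21. The 7 hepatocyte markers measured, such as Alb, had a mean level between 12.97 and 13.29 in all arrays, among the brightest on the array. The array that stood apart was replicate 6 at 0.1 mg/kg, with the lowest array weight (0.517), and the step up from that dose is also given without it. An array of whole liver cannot tell fewer cells of a type from less RNA per cell.

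None of the 27 genes passed the test at any dose. In limma's moderated test with Benjamini-Hochberg adjustment over all probe sets, 0 of 27 had an adjusted p under 0.05 in each of 11 comparisons: 5 doses against vehicle, 4 steps between neighbouring doses, a trend in dose rank and an F-test of any dose. The lowest adjusted p over all 47 probe sets of these genes and all comparisons was 0.274, for a second probe set of Sc5d. Few probe sets of the whole array passed either. The share called was 0% at 0.1 mg/kg, 0.029% at 0.959 mg/kg, 0.116% at 9.59 mg/kg, 0.0902% at 95.9 mg/kg and 0.11% at 959 mg/kg. It was 0.00644% from 0.1 to 0.959 mg/kg, 0.00322% from 0.959 to 9.59 mg/kg, 0.00322% from 9.59 to 95.9 mg/kg and 0.00644% from 95.9 to 959 mg/kg. The trend called 0.393% and the F-test 0.135%. What these genes show is therefore a matter of size, direction and spread, described below with unadjusted p-values that passed no correction.

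The group that stood out was 0.959 mg/kg, the second lowest dose. All 17 synthesis enzymes had a higher mean there than in vehicle, with log2 fold changes from 0.10 to 0.39 and a median of 0.25, against a median of 0.01 over all 14217 genes. At an unadjusted p under 0.05, 12 of 17 were higher and 0 lower, and these 12 were the only ones among the 27 genes. The same cut was met by 6.75% of all genes in either direction and by 3.26% upwards. The count of 12 rests in part on 2 vehicle arrays: it was 3 without vehicle replicate 3 and 7 without vehicle replicate 1, while the direction was positive for 17 of 17 in each case. It was 8 without 0.959 mg/kg replicate 4 and 8 without 0.959 mg/kg replicate 6. The enzymes move together from array to array, as shown further on, so 17 genes in 1 direction are not 17 independent observations.

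**Figure D1:**
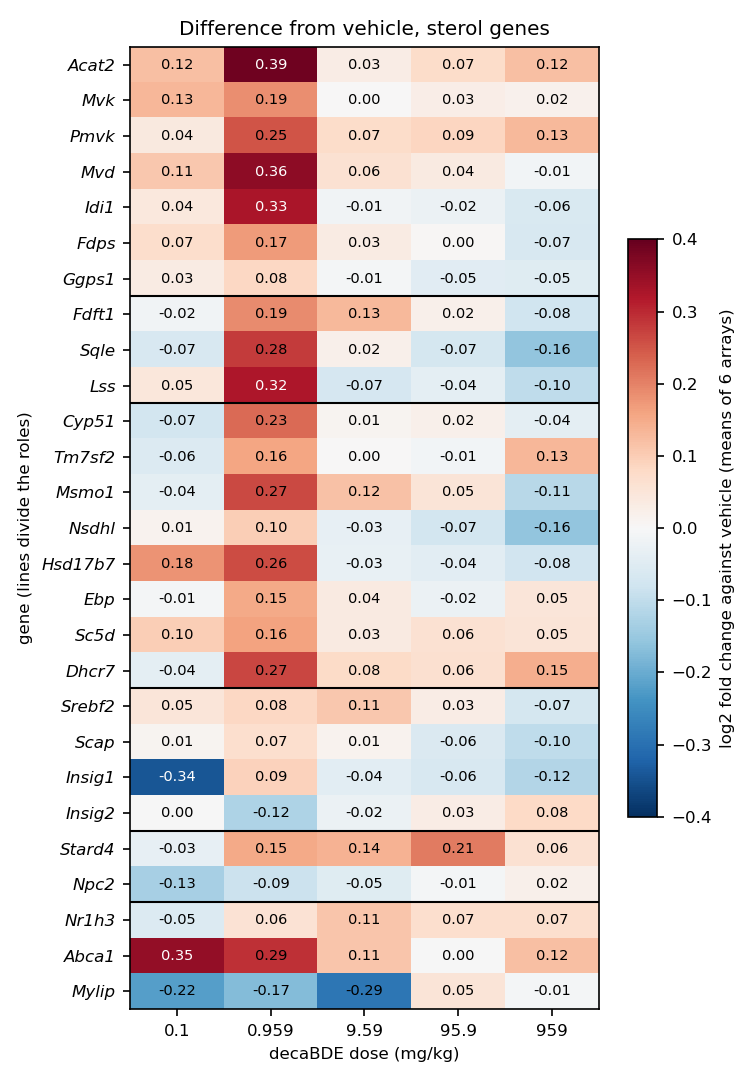
Log2 fold change against vehicle (colour and printed value, means of 6 arrays per group) for the 27 genes measured (rows, divided by role) at each decaBDE dose in mg/kg (columns). The synthesis enzymes are positive throughout the 0.959 mg/kg column, from 0.10 for Nsdhl to 0.39 for Acat2, while the medians at the other doses lie between -0.04 and 0.04 and single values between -0.16 and 0.18.

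Lss, lanosterol synthase, closes squalene epoxide into the first sterol ring system and had the smallest p of these genes. Its lowest, median and highest levels were 9.31, 9.60 and 9.78 in vehicle and 9.80, 9.91 and 10.03 at 0.959 mg/kg. Every array at 0.959 mg/kg thus lay above every vehicle array. The log2 fold change was 0.32 (SE 0.104, 1.25-fold, unadjusted p = 0.00386, adjusted p = 0.744). Such complete separation upwards was seen for 0.309% of all genes at this dose. Among the 27 it was seen for Lss and Mvk, mevalonate kinase, whose arrays ran from 8.64 to 8.91 in vehicle and from 8.93 to 9.07 at 0.959 mg/kg.

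Mvd, which makes isopentenyl diphosphate by removing a carboxyl group, followed. Its lowest, median and highest levels were 7.60, 7.99 and 8.28 in vehicle and 8.19, 8.35 and 8.53 at 0.959 mg/kg, and 4 of 6 dosed arrays lay above every vehicle array. The log2 fold change was 0.36 (adjusted p = 0.756). Cyp51, the demethylase that acts on lanosterol, ran from 12.14 through a median of 12.32 to 12.43 in vehicle. At 0.959 mg/kg it ran from 12.41 through 12.55 to 12.66, with 5 of 6 arrays above every vehicle array. Its log2 fold change was 0.23 (adjusted p = 0.768). The identifier of this Cyp51 probe set marks probes that can also match related transcripts, and its second probe set is given further on. Idi1, the isomerase that readies isopentenyl diphosphate for chain growth, ran from 10.81 through 11.33 to 11.53 in vehicle and from 11.37 through 11.58 to 11.71 at 0.959 mg/kg. Its log2 fold change was 0.33 (adjusted p = 0.770), again with 5 of 6 arrays above every vehicle array. For Lss, Mvd, Cyp51 and Idi1 alike, vehicle replicate 3 was the lowest vehicle array.

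Promoter windows of these 4 genes are printed because they had the smallest unadjusted p at 0.959 mg/kg, together with that of Insig1, the control gene with the widest spread. Each is the RefSeq sequence of build GRCr8, read 5′ to 3′ on the gene's own strand, from 250 bases before to 50 bases after the annotated start. Capitals mark the NF-Y box CCAAT (or ATTGG, its reverse complement), bound by a factor that works beside SREBP2 on sterol genes, and the E-box CACGTG.
Lss (chr20:12118181-12118480, minus strand): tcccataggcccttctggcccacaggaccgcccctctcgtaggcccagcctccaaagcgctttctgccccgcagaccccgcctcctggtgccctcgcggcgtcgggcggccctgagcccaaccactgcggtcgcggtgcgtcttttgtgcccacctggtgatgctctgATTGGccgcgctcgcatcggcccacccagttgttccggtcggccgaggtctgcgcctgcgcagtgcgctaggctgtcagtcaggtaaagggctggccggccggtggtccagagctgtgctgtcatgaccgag
Mvd (chr19:67414925-67415224, minus strand): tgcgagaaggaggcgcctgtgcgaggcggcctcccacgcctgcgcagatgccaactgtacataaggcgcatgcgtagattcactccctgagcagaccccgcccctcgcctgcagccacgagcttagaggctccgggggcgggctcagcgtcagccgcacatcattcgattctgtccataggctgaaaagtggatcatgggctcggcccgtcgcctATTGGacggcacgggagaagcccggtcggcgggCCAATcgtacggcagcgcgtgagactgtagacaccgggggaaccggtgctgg
Cyp51 (chr4:30991443-30991742, plus strand): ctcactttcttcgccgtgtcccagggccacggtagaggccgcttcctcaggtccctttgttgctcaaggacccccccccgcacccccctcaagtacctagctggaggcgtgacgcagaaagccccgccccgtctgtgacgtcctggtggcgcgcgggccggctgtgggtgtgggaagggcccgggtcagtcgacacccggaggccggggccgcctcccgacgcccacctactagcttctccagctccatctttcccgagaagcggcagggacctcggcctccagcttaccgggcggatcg
Idi1 (chr17:66547475-66547774, minus strand): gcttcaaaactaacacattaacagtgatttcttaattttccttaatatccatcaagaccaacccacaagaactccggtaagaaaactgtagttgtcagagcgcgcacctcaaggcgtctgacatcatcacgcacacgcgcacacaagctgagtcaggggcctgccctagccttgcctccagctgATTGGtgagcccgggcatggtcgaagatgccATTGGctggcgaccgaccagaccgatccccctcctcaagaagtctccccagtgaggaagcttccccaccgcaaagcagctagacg
Insig1 (chr4:8057720-8058019, minus strand): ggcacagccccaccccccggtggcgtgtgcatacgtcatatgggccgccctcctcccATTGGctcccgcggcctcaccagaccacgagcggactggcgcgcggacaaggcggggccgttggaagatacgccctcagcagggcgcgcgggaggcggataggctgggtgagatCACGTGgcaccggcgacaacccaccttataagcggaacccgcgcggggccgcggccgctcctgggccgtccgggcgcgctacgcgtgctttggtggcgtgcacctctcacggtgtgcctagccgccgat

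Windows were given for 25 of the 30 symbols, leaving out Pmvk, Fdft1, Sqle, Stard4 and Soat2. CCAAT, on either strand, was in 18 of 25, against 37.5% of all 33469 windows of the table and 36.8% of the 13243 windows whose gene is on the array. Lss held 1 such box, Mvd and Idi1 held 2 each, Mvk and Nsdhl held 5 each, and Cyp51, Dhcr7 and Acat2 held 0. In Lss the box began 82 bases before the start. CACGTG was in 4 of 25 (Sc5d, Insig1, Scap and Abca1), against 6.42% of all windows and 8.62% of those whose gene is on the array. The sterol regulatory element written TCACNCCAC was in 0 of 25, against 1.12% of all windows, and a longer form of it (0.125% of all) and the LXR element (0.012% of all) were in 0 of 25 as well. No match says only that these letters are not in these windows.

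The other mevalonate genes had the same direction at 0.959 mg/kg. Acat2, which joins the first acetyl units, had the largest log2 fold change of the 27 genes, 0.39 (95% interval 0.06 to 0.72). Its arrays ran from 9.29 to 9.95 in vehicle and from 9.60 to 10.15 at 0.959 mg/kg, so the groups overlapped. Pmvk, which adds a second phosphate to mevalonate, had a log2 fold change of 0.25 and Fdps, which builds farnesyl diphosphate, of 0.17. Ggps1, which extends that chain towards protein prenylation, had 0.08 (95% interval -0.03 to 0.20) at a mean signal of 5.79, near the median of all probe sets (5.16). Of its other probe sets, 1 had a log2 fold change of -0.11 and 1 of 0.11.

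On the way from squalene, Fdft1, squalene synthase, had a log2 fold change of 0.19 and Sqle, squalene epoxidase, of 0.28 (95% interval -0.01 to 0.57). Sqle ran from 8.79 through a median of 9.34 to 9.59 in vehicle and from 9.40 through 9.53 to 9.65 at 0.959 mg/kg. The difference for Sqle is mostly in the low vehicle arrays, since the highest values of both groups are close. Among the 8 enzymes after lanosterol the log2 fold changes ran from 0.10 to 0.27. Msmo1 (0.27), Nsdhl (0.10) and Hsd17b7 (0.26) strip the methyl groups at the fourth ring carbon, and Ebp (0.15) and Sc5d (0.16) move and add ring double bonds. Tm7sf2, a sterol reductase, had 0.16 (95% interval -0.06 to 0.38), and Dhcr7, which completes cholesterol, had 0.27 (95% interval 0.02 to 0.51).

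**Figure D2:**
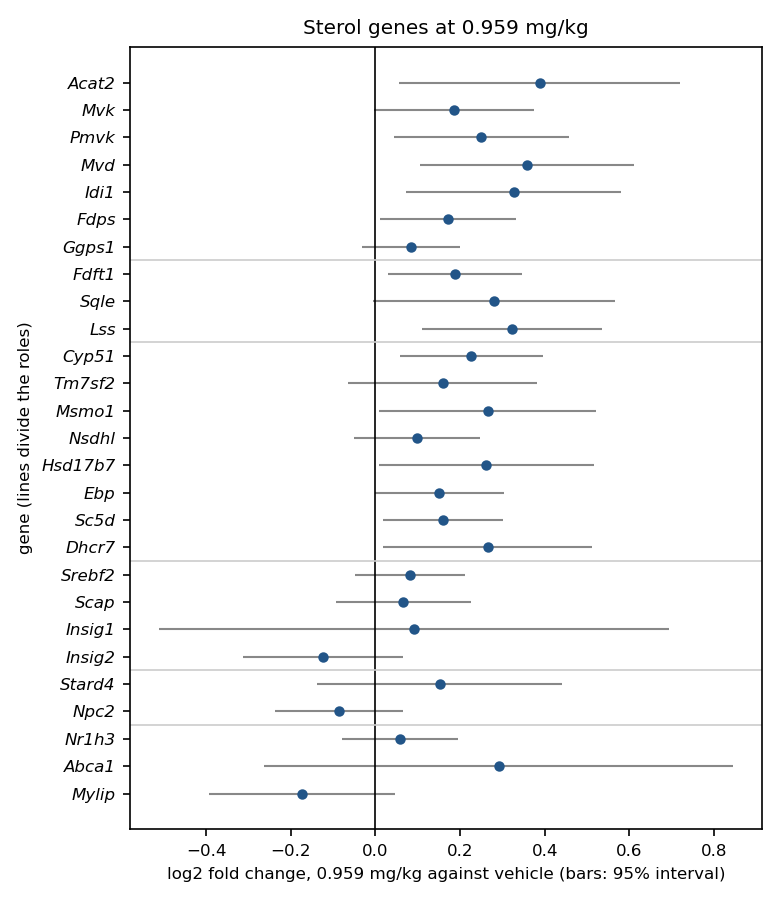
Log2 fold change at 0.959 mg/kg against vehicle (horizontal axis) for each of the 27 genes (rows, divided by role), with bars for limma's 95% interval from 6 arrays per group. The 17 synthesis enzymes lie right of 0, with 12 intervals that leave out 0, and Insig1 and Abca1 have by far the widest intervals.

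Of the 17 synthesis enzymes 8 had a second probe set. At 0.959 mg/kg the log2 fold changes of these were 0.34 for Lss, 0.32 for Idi1, 0.25 for Cyp51, 0.24 for Mvk, 0.23 for Sc5d, 0.21 for Hsd17b7, 0.18 for Fdft1 and 0.03 for Nsdhl. Those of Cyp51, Fdft1, Idi1 and Sc5d had 6 of 6 arrays above every vehicle array, which their brightest probe sets had not. By brightest probe sets this was seen for 0.309% of all genes. A further probe set had 0.15 for Sc5d and 0.06 for Mvk. Over the second probe sets, 8 of 8 were higher and 6 had an unadjusted p under 0.05. By brightest probe sets 3.26% of all genes met that cut upwards. Both probe sets of a gene are read on the same arrays, so the second are not separate evidence.

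The mean difference between 0.1 and 0.959 mg/kg uses no vehicle array, while its error comes from the fit over all 36 arrays. From 0.1 to 0.959 mg/kg all 17 synthesis enzymes had a positive log2 fold change, from 0.05 to 0.35 with a median of 0.21, and 9 of 17 had an unadjusted p under 0.05, against 4.7% of all genes. The count was 4 without 0.1 mg/kg replicate 4, and 9 without replicate 6, the array that stood apart. Cyp51 came first, with a log2 fold change of 0.30 (SE 0.083, unadjusted p = 0.000904, adjusted p = 0.861), and then Lss (0.28), Fdft1 (0.20) and Dhcr7 (0.31, each with an adjusted p = 0.998). Cyp51 ranged from 11.87 to 12.52 at 0.1 mg/kg, with replicate 6 lowest. For Sqle (8.90 to 9.30 against 9.40 to 9.65) and Msmo1 (11.86 to 12.24 against 12.27 to 12.48) the groups did not overlap. How many of all genes separate in this step is not given here, so this only describes the 2 genes.

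The next step went the other way. From 0.959 to 9.59 mg/kg all 17 synthesis enzymes had a negative log2 fold change, from -0.39 to -0.06 with a median of -0.19, and 6 of 17 had an unadjusted p under 0.05, against 6.45% of all genes. Both steps share the 0.959 mg/kg arrays, so they are not separate evidence about that group. Lss came first here, with 9.25, 9.58 and 9.76 as its lowest, median and highest levels at 9.59 mg/kg. All 6 arrays at 9.59 mg/kg lay below every array at 0.959 mg/kg, and the log2 fold change was -0.39 (SE 0.104, unadjusted p = 0.000648, adjusted p = 0.325). The share of all genes with such separation in this step is not given here. Idi1 (-0.34, adjusted p = 0.521), Cyp51 (-0.22, 0.553) and Mvd (-0.30, adjusted p = 0.586) followed. The count of 6 was 3 without 9.59 mg/kg replicate 5, and 10 without replicate 6 of that group.

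At 0.1 mg/kg against vehicle the synthesis enzymes had a median log2 fold change of 0.04, with 10 of 17 positive. At 9.59 mg/kg the median was 0.03 with 13 of 17 positive, at 95.9 mg/kg 0.02 with 10 of 17, and at 959 mg/kg -0.04 with 7 of 17. These comparisons share the vehicle arrays. Of all 27 genes, 1 had an unadjusted p under 0.05 at 0.1 mg/kg (Mylip), 1 at 9.59 mg/kg (Mylip), 0 at 95.9 mg/kg and 1 at 959 mg/kg (Nsdhl). The share of all genes was 3.72%, 9.74%, 7.85% and 7.19% in that order, so the sterol genes lay at or below the background at these doses. From 9.59 to 95.9 mg/kg it was 1 of 27 (Mylip), against 5.41% of all genes, and from 95.9 to 959 mg/kg 0 of 27, against 4.4%.

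Nsdhl, which takes part in removing the ring methyl groups, was the gene with the smallest p at the highest dose. Its lowest, median and highest levels were 11.39, 11.52 and 11.71 in vehicle and 11.22, 11.40 and 11.49 at 959 mg/kg, with 3 of 6 arrays below every vehicle array. The log2 fold change was -0.16 (SE 0.073, adjusted p = 0.796). In the trend over dose rank it had a slope of -0.03 per rank (unadjusted p = 0.0094, adjusted p = 0.342) and was the only 1 of 27 under 0.05, against 10.5% of all genes. Nr1h3 (0.02 per rank), Lss (-0.03) and Hsd17b7 (-0.04) were next in the trend. In the F-test of any dose 6 of 27 had an unadjusted p under 0.05, against 8.06% of all genes, led by Lss (adjusted p = 0.374), Mylip (0.529), Cyp51 (0.547) and Fdft1 (0.547).

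The other genes with the smallest p at the higher doses had small differences. At 9.59 mg/kg these were Srebf2 and Nr1h3 (both 0.11) and Fdft1 (0.13). At 95.9 mg/kg they were Stard4 (0.21), Nr1h3 (0.07), Nsdhl (-0.07) and Sc5d (0.06). At 959 mg/kg Scap had -0.10, Pmvk 0.13 and Tm7sf2 0.13. From 9.59 to 95.9 mg/kg Fdft1 had -0.11, Srebf2 -0.08 and Scap -0.07, and from 95.9 to 959 mg/kg Srebf2 had -0.10, Tm7sf2 0.14, Fdft1 -0.10 and Msmo1 -0.16. For Srebf2 at 9.59 mg/kg, and for Srebf2 and Scap from 9.59 to 95.9 mg/kg, a second, dimmer probe set gave the opposite sign. All adjusted p-values among these were 0.668 or above.

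Many of these small values rest on single arrays. At 9.59 mg/kg Srebf2 was 0.069 without 9.59 mg/kg replicate 1. At 95.9 mg/kg Nr1h3 was 0.036 without vehicle replicate 3, Nsdhl -0.023 without 95.9 mg/kg replicate 1 and Sc5d 0.019 without 95.9 mg/kg replicate 4. At 959 mg/kg Pmvk was 0.069 and Tm7sf2 0.045 without 959 mg/kg replicate 2, and Scap -0.053 without 959 mg/kg replicate 5; without replicate 5 Pmvk was 0.21. From 9.59 to 95.9 mg/kg Fdft1 was -0.067 without 95.9 mg/kg replicate 1, and Srebf2 -0.040 and Scap -0.031 without 9.59 mg/kg replicate 1. Srebf2 was -0.126 in that step without 9.59 mg/kg replicate 5, and Scap -0.123 without 95.9 mg/kg replicate 2. From 95.9 to 959 mg/kg Msmo1 was -0.024 without 959 mg/kg replicate 4, Tm7sf2 0.057 without 959 mg/kg replicate 2 and Fdft1 -0.053 without 959 mg/kg replicate 5.

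The control genes had smaller differences. At 0.959 mg/kg Srebf2, which encodes SREBP2, had a log2 fold change of 0.08 (95% interval -0.05 to 0.21) and Scap, its escort, 0.07 (95% interval -0.09 to 0.23). Srebf2 ran from 7.83 to 8.15 in vehicle and from 7.96 to 8.22 at 0.959 mg/kg. Insig1, itself a target of SREBP2, had 0.09 with an interval from -0.51 to 0.69. Insig2, the form of INSIG that SREBP2 does not drive, had -0.12 (95% interval -0.31 to 0.07), with arrays from 12.13 to 12.34 in vehicle and from 11.88 to 12.40 at 0.959 mg/kg. Whether these genes differed from the enzymes in their response was not tested.

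Insig1 varied far more between arrays of 1 group than the enzymes did. Its lowest, median and highest levels were 10.38, 10.88 and 11.87 in vehicle, 10.46, 11.20 and 11.80 at 0.959 mg/kg, and 9.66, 11.17 and 11.56 at 959 mg/kg. The SD within groups was 0.554 on the log2 scale, higher than that of 99.1% of all genes. The largest mean difference was at 0.1 mg/kg, where its arrays ran from 10.35 to 11.13 and the log2 fold change was -0.34 (95% interval reaching above 0, unadjusted p = 0.257). All 6 groups overlapped.

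For moving sterols, Stard4, a cytosolic sterol carrier, ran from 8.33 to 9.13 in vehicle, from 8.46 to 9.26 at 0.959 mg/kg and from 8.62 to 9.28 at 95.9 mg/kg. Its largest log2 fold change was the 0.21 at 95.9 mg/kg (adjusted p = 0.842), which was 0.126 without 95.9 mg/kg replicate 5 and 0.30 without vehicle replicate 2. Npc2, which hands cholesterol out of the lysosome, ran from 10.75 to 10.95 in vehicle and from 10.51 to 11.10 at 0.1 mg/kg. It had -0.13 there (unadjusted p = 0.0819; -0.20 without 0.1 mg/kg replicate 6 and -0.086 without replicate 4) and lay within 0.09 of vehicle at the other doses. At 0.1 mg/kg Hsd17b7 (0.18, or 0.107 without vehicle replicate 3) and Mvk (0.13) came next.

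In the LXR arm, Mylip, a ubiquitin ligase that LXR turns on, had the only unadjusted p under 0.05 at 9.59 mg/kg. Its lowest, median and highest levels were 5.45, 5.65 and 5.76 in vehicle, 5.12, 5.35 and 5.59 at 9.59 mg/kg and 5.47, 5.71 and 5.86 at 95.9 mg/kg. The log2 fold change against vehicle was -0.22 at 0.1 mg/kg (adjusted p = 1.00; -0.146 without 0.1 mg/kg replicate 4), -0.17 at 0.959 mg/kg, -0.29 at 9.59 mg/kg (SE 0.109, adjusted p = 0.426), 0.05 at 95.9 mg/kg and -0.01 at 959 mg/kg. From 9.59 to 95.9 mg/kg it was 0.34 (unadjusted p = 0.00341, adjusted p = 0.559), with 4 of 6 arrays above every array at 9.59 mg/kg. Its signal lay near the median of all probe sets (5.16). Nr1h3, which encodes the LXR form most abundant in liver, had log2 fold changes between -0.05 and 0.11.

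Abca1, which exports cholesterol from cells, gave values that depended on the probe set. Its brightest probe set ran from 8.22 through a median of 10.13 to 10.40 in vehicle and from 9.63 through 10.13 to 10.45 at 0.959 mg/kg, with medians equal to 2 decimals. The low vehicle value belonged to replicate 4. The SD within groups was 0.509, above that of 99% of all genes. Of its 3 other probe sets, 1 followed the brightest over arrays (r = 0.963) and 2 ran against it (r = -0.347 and -0.303). At 0.959 mg/kg the log2 fold changes were 0.29 and 0.30 for the first pair and -0.18 and -0.09 for the second, so no direction is given for Abca1.

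**Figure D3:**
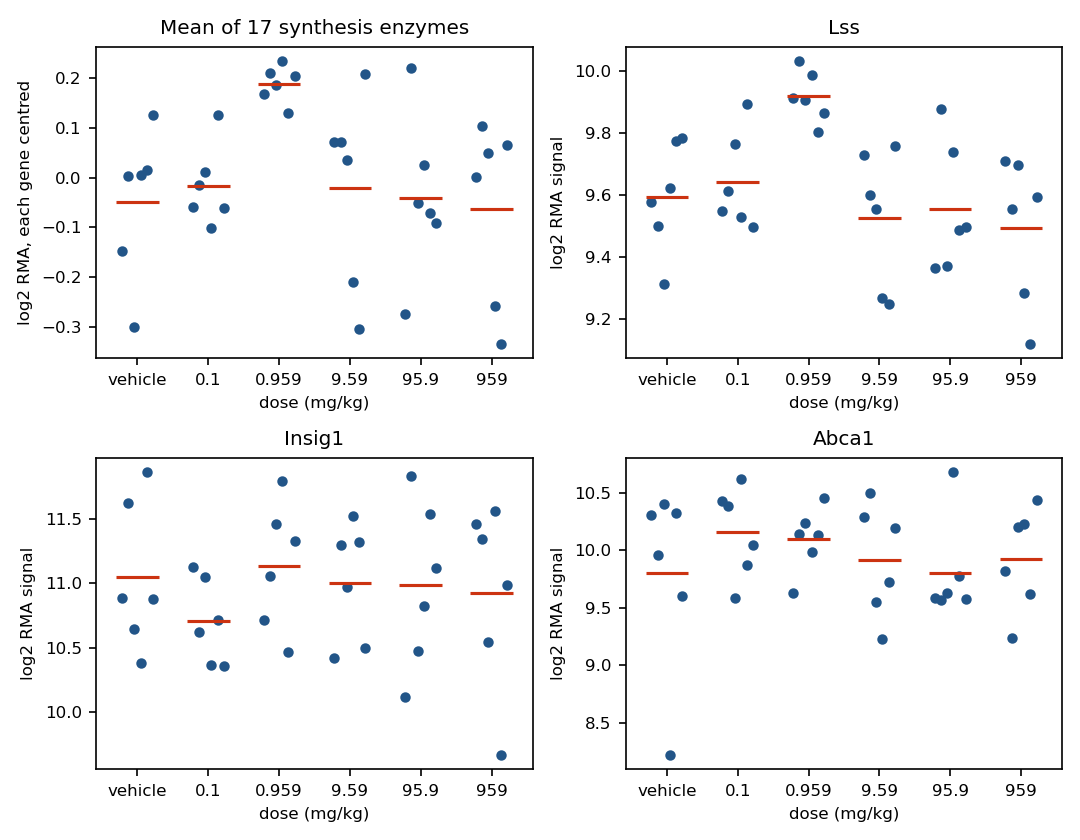
Each point is 1 array and each red bar a group mean of 6 arrays, by dose in mg/kg, for the mean of the 17 synthesis enzymes (each gene centred on its mean over 36 arrays, log2 RMA) and for Lss, Insig1 and Abca1 (log2 RMA signal). The 0.959 mg/kg arrays lie closely together at 0.130 to 0.235 in the first panel. The 0.1 mg/kg arrays reach down to -0.101 and the remaining groups lower, to -0.335 at 959 mg/kg. Insig1 and Abca1 spread widely in most groups.

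To see the enzymes as 1 set, the 17 were each centred on their mean over all arrays and averaged in each array. The mean and SD over 6 arrays were -0.049 ± 0.151 in vehicle, -0.017 ± 0.0802 at 0.1 mg/kg, 0.190 ± 0.0366 at 0.959 mg/kg, -0.021 ± 0.195 at 9.59 mg/kg, -0.040 ± 0.162 at 95.9 mg/kg and -0.062 ± 0.187 at 959 mg/kg. The 0.959 mg/kg arrays ran from 0.130 to 0.235, just above the highest vehicle array (0.127, replicate 6). The groups at 9.59 and 95.9 mg/kg each had 1 array in that range, 9.59 mg/kg replicate 6 at 0.210 and 95.9 mg/kg replicate 2 at 0.221.

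The 0.959 mg/kg group had no low array. In 4 of the other groups single arrays had nearly all enzymes low together. Vehicle replicate 3 stood at -0.301 with 17 of 17 enzymes below their group mean, 9.59 mg/kg replicate 5 at -0.306 with 17 of 17 and 959 mg/kg replicate 5 at -0.335 with 17 of 17. Next came 95.9 mg/kg replicate 1 at -0.275 with 16 of 17, 959 mg/kg replicate 4 at -0.260 with 15 and 9.59 mg/kg replicate 4 at -0.210 with 16. The lowest of the 6 group SDs fell in the 0.959 mg/kg group for 8 of 17 enzymes, against 19.0% of all genes. It fell in the 0.1 mg/kg group for 6 of 17, against 13.4% of all genes, so a tight spread was not particular to 0.959 mg/kg. The median SD of the enzymes was 0.109 at 0.959 mg/kg, 0.139 at 0.1 mg/kg and from 0.177 to 0.236 in the other groups.

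The enzymes moved together within groups. After each group's mean was taken out, the 136 pairs of synthesis enzymes had a median Pearson's r of 0.576 over 36 arrays, and 64.7% of pairs (88) had r over 0.5. Over all genes the median r was 0.001 and 1.13% of pairs had r over 0.5; among genes at or above the median level the figures were 0.021 and 1.98%. These are descriptions over arrays that share their processing, with no test. Leaving out any 1 array kept the median r between 0.539 and 0.628.

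Sqle and Msmo1 were the closest pair (r = 0.882), followed by Tm7sf2 and Ebp (0.856), Msmo1 and Hsd17b7 (0.852), and Mvd and Lss (0.850). Mvd had the highest median r with the others (0.710) and Sc5d the lowest of the 17 (0.323). Of 136 pairs 3 were negative, all of them with Sc5d, the lowest being Tm7sf2 with Sc5d (r = -0.244). The other probe sets of Sc5d followed its brightest with r = 0.229 and 0.508. Whether its low values depend on the probe set was not tested. A second, looser group of Tm7sf2, Ebp, Dhcr7 and Pmvk is visible in the plot of correlations, and was picked out after the values were seen.

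**Figure D4:**
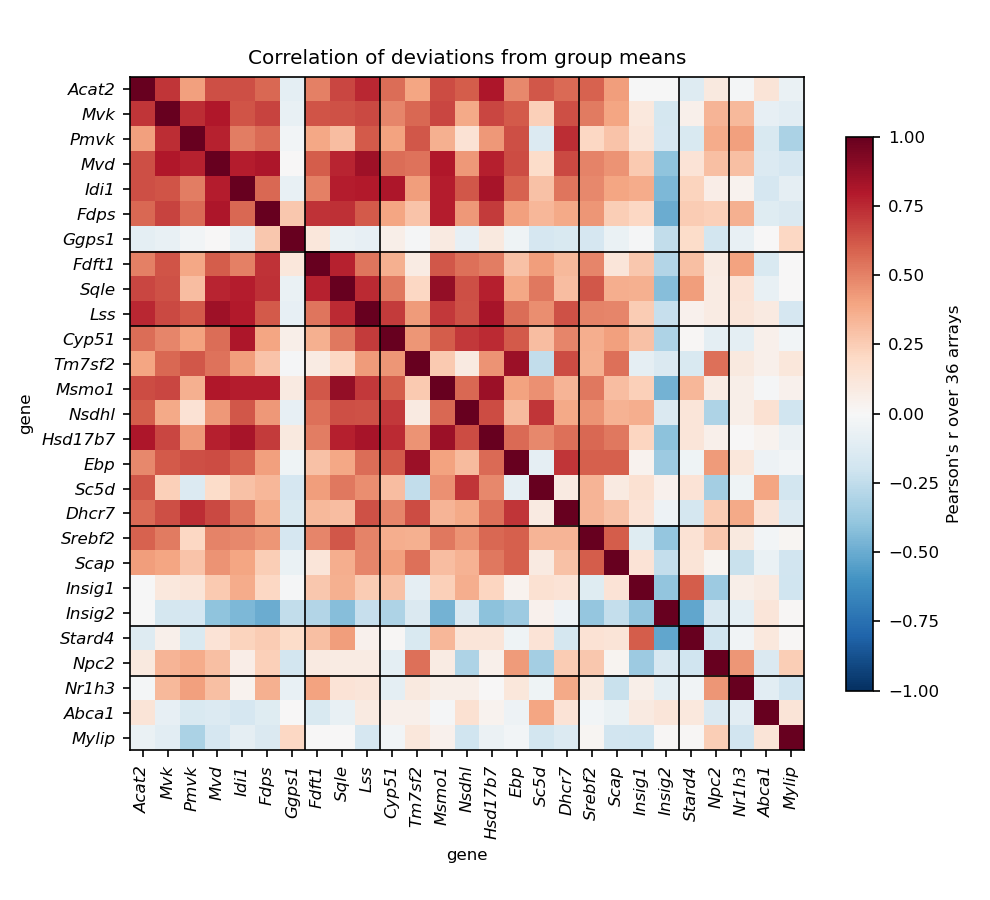
Pearson's r between deviations from group means over 36 arrays for every pair of the 27 genes (rows and columns in the same order, lines dividing the roles). The synthesis enzymes form a block of positive values with a median of 0.576, Srebf2 and Scap join it, and Insig2, Ggps1, Abca1 and Mylip do not.

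The shared movement differed between groups. The median r of the same 136 pairs, over 6 arrays each, was 0.698 in vehicle, 0.240 at 0.1 mg/kg, 0.139 at 0.959 mg/kg, 0.788 at 9.59 mg/kg, 0.719 at 95.9 mg/kg and 0.633 at 959 mg/kg. It was lowest in the groups at 0.1 and 0.959 mg/kg, whose lowest arrays stood at -0.101 and 0.130 in the mean of the enzymes. With 6 arrays a group, the difference was not tested.

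Srebf2 followed the enzymes (median r 0.488, highest with Sqle at 0.621), as did Scap (0.391). Ggps1 did not (-0.040), although it shares the mevalonate role. Its mean signal was low (5.79), and its other probe sets followed its brightest only weakly (r = 0.247 and 0.204), which limits this value. Insig1 followed the enzymes only loosely (0.216) and went most closely with Stard4 (r = 0.604). Insig2 ran against them (median r -0.294, down to -0.499 with Fdps) and against Stard4 (r = -0.518). Stard4 (0.122), Npc2 (0.092), Nr1h3 (0.111), Abca1 (-0.014) and Mylip (-0.090) stood outside the shared movement.

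**Figure D5:**
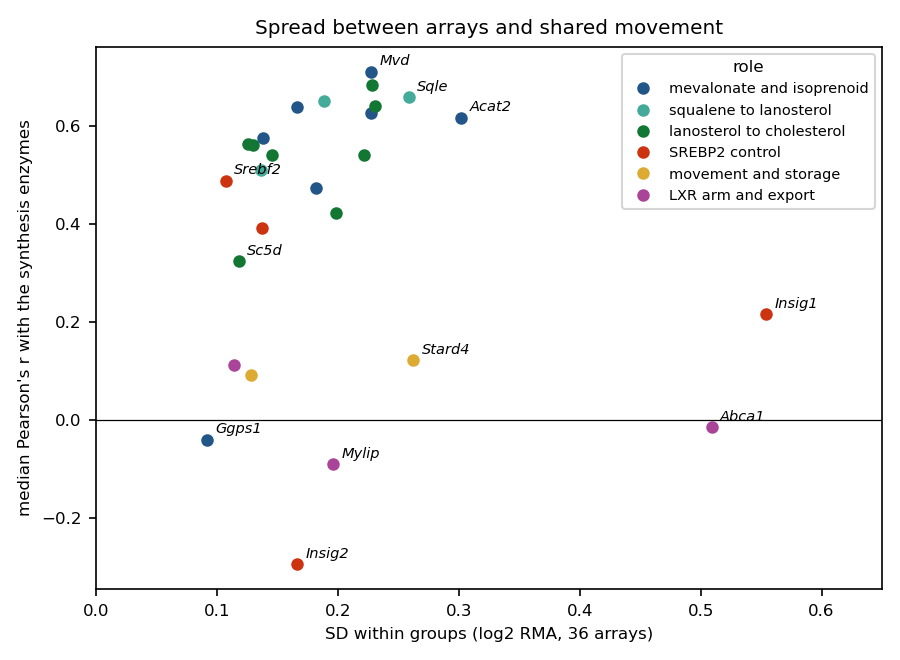
SD within groups (horizontal axis, log2 RMA over 36 arrays) against the median Pearson's r with the 17 synthesis enzymes (vertical axis), 1 point per gene, coloured by role. Insig1 and Abca1 lie far to the right at 0.554 and 0.509 with median r of 0.216 and -0.014, and Insig2 is lowest at -0.294.

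Other sterol genes gave no such pattern. Of 36 listed genes of uptake, esterification, bile acid synthesis, LXR targets and prenyl chains, 32 were measured and 0 passed the adjusted threshold at any dose. Their median log2 fold change was 0.02 at 0.959 mg/kg, with 18 of 32 positive, and stayed within 0.02 of 0 at the other doses. The lowest values were those of Abcg8 and Abcg5, which together export sterols into bile, at 9.59 mg/kg (-0.995, adjusted p = 0.205, and -0.947, adjusted p = 0.236). Coq2, which attaches the isoprenoid tail of ubiquinone, had positive values at all 5 doses, from 0.18 to 0.32 (lowest adjusted p = 0.103). These 5 values share the vehicle arrays.

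No marker of another cell type or liver zone passed the adjusted threshold at 0.959 mg/kg. In limma's moderated test at 959 mg/kg, 1 of 5 pericentral markers was called upwards (adjusted p = 0.0488), against 0.11% of all probe sets. In the trend over dose rank 1 of 5 was called upwards (adjusted p = 0.00145), against 0.393% of all probe sets. All 8 measured Kupffer cell and macrophage markers of 10 listed had a negative log2 fold change at each of the 5 doses. The 5 comparisons share the vehicle arrays, so they are not separate evidence. The median of these markers was -0.49 at 0.959 mg/kg, where 6 of 8 had an unadjusted p under 0.05, against 6.75% of all genes. Their mean level ran from 8.06 to 9.17 in vehicle and from 7.96 to 8.67 at 0.959 mg/kg. All 5 endothelial markers (median -0.21) and all 6 periportal hepatocyte markers (median -0.20) were negative there too, as were all 5 lymphocyte markers (median -0.23) and all 7 hepatocyte markers (median -0.03). An unadjusted p under 0.05 was met by 3 of 5 endothelial, 4 of 6 periportal, 2 of 5 lymphocyte and 0 of 7 hepatocyte markers. The share of all genes to set beside these is the same 6.75%. Pericentral markers were mixed (2 of 5 positive, median -0.03), as were those of cholangiocytes (2 of 4) and of stellate cells and fibroblasts (5 of 7 positive, median 0.06), and both measured neutrophil markers were positive (median 0.13). Within groups the macrophage markers had r between -0.283 and -0.180 with the mean of the synthesis enzymes. The lowest r among all these markers was that of Krt7, a cholangiocyte keratin (-0.501), and the highest that of Oat, a pericentral enzyme (0.309). Of 13 clock genes 11 were measured, with 0 called at any dose and a median of -0.03 at 0.959 mg/kg. The beta-actin control probes, whose 3′ minus 5′ difference rises as RNA degrades, gave 1.16 ± 0.0505 in vehicle, 1.24 ± 0.147 at 0.1 mg/kg and 1.23 ± 0.107 at 0.959 mg/kg, and this had r = 0.232 with the mean of the enzymes within groups. The GAPDH control gave -0.081 ± 0.0397 in vehicle and -0.072 ± 0.0258 at 0.959 mg/kg, with r = 0.067. The part of cell types, liver zones or RNA quality in the values of the sterol genes was not tested.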

How the data were processed

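Per the labels and the submitters' processing notes, the deposited values are log2 signals that the authors made from Affymetrix 3' arrays with RMA in the affy package (versions not given in the sources used here): background-corrected, quantile-normalised and summarised per probe set. They ran from 2.02 to 15.0. Quantile normalisation removes any shift shared by most genes.

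The table holds 31099 probe sets, of which the 57 array controls were not tested. Genes were named only from probe sets with 1 symbol in the platform annotation, and the brightest by mean over all arrays stood for its gene. Group means were fitted by limma 3.58.1 under R 4.3.3 (lmFit and eBayes, with degrees of freedom of 30 for the residuals and 5.12 for the prior), and contrasts were two-sided, with Benjamini-Hochberg adjustment over 31042 probe sets within each comparison and a threshold of 0.05. The series' design text names another package, which was not at hand. The scripts were tested on simulated data. The members, lists and tests were chosen with earlier results of these data known. All members measured are described, and the 4 with the smallest p in each comparison were followed through the alternatives. Promoter sequences come from RefSeq (GRCr8). Correlations used deviations from group means. Replicate numbers came from the sample titles. The number of arrays (6) per group limit the precision.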

Additional observations from a re-analysis of the deposited data

Results flagged for a closer look

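Of 162 sets of 6 values, 1 for each gene and group, 6 had a highest or lowest array that lay far from the other 5 by Dixon's test at the 95% level. Chance alone flags about 1 in 20 such sets, so 6 of 162 is no more than chance gives. Abca1, the exporter of cholesterol, had 2 of them: vehicle replicate 4 was low at 8.219 (next array 9.60), and 95.9 mg/kg replicate 4 was high at 10.68 (next array 9.78). Mvk was high in 95.9 mg/kg replicate 2, at 9.223, the array in which all 17 synthesis enzymes lay above their group mean. Pmvk was low in 0.1 mg/kg replicate 1, at 9.461. Tm7sf2 was high in 959 mg/kg replicate 2, at 11.68. Nsdhl was low in 0.1 mg/kg replicate 6, at 11.34, the array that stood apart from the rest of the series.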

How the results depend on the processing

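The count of 0 genes past the adjusted threshold held in all 11 comparisons under every alternative run, with a lowest adjusted p of 0.197. These were another normalisation, centring on array medians, a filter on dim probe sets, brightest or second probe sets, other variance models, array weights, the replicate block, the compared groups alone, and each array left out. Of 1169 alternative values for the named genes, 1166 neither reversed nor passed the threshold. Those of the F-test among them have no direction and were followed by their adjusted p alone. The other 3 reversed, all on a second, dimmer probe set: Srebf2 at 9.59 mg/kg (-0.092), Srebf2 from 9.59 to 95.9 mg/kg (0.108) and Scap in the same step (0.030). The cause was not tested. The alternatives below on the synthesis enzymes were added after seeing the data. The count of 12 enzymes with an unadjusted p under 0.05 at 0.959 mg/kg ran from 3 (without vehicle replicate 3) to 14 (without vehicle replicate 6) with 1 array left out, and was 16 with only the groups compared in the fit and 9 with array weights. With second probe sets it was 6 and the count of higher enzymes 8, since 8 enzymes have one. The replicate numbers did not pair the arrays: same-numbered arrays of different groups had r from -0.239 to 0.375 (median -0.034, 12 of 90 over 0.1). Those with different numbers had r from -0.301 to 0.346 (median 0.009, 66 of 450 over 0.1). With the replicate block 0 genes passed in each comparison. A low signal limits Mylip, Ggps1 and the second probe set of Srebf2.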

Other observations

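Of the genes outside the list, the 12 that moved most like the synthesis enzymes within groups were ranked by Pearson's r over 36 arrays with the mean deviation of the 17. Among them 5 take part in acetyl-CoA or fatty acid metabolism. Acss2, which makes acetyl-CoA from acetate, came first (r = 0.769, log2 fold change 0.22 at 0.959 mg/kg), then Fasn, fatty acid synthase (r = 0.746, 0.25), and Aacs, which makes acetoacetyl-CoA (r = 0.713, 0.24). Acly, which makes cytosolic acetyl-CoA from citrate, had r = 0.658 (0.38), and Elovl6, a fatty acid elongase, r = 0.615 (0.30). Tmem97, which binds sterols, had r = 0.630 (0.23), and Erg28, a sterol gene of the wider list, r = 0.614 (0.09). The others were Cetn2 (r = 0.697, 0.06), Hes6 (r = 0.661, 0.13), Tmem254 (r = 0.649, 0.13), Psmd5 (r = 0.643, 0.19) and Svip (r = 0.624, 0.16). These are descriptions with no test, picked from all genes by the size of r, and the grouping by function was made after the genes were seen.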
